A study of Sorghum bicolor with 4 samples.

Results

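The genes described here are 8 sorghum genes of C4 photosynthesis, measured in the middle stem internode of the sweet sorghum line ICSA38. They were chosen by identifier and enzyme: a pair of carbonic anhydrase genes and 1 gene each for the C4 form of phosphoenolpyruvate (PEP) carboxylase, PEP carboxylase kinase, NADP-malate dehydrogenase, NADP-malic enzyme, pyruvate, phosphate dikinase (PPDK) and the small subunit of Rubisco. All 8 were found among the 34129 gene identifiers of the deposited expression table. They occupy 7 of its 34458 rows (loci), because both carbonic anhydrase genes share 1 row. The enzyme names come with the list of identifiers and are not in the table.

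Field-grown plants of a single line were sampled during grain filling at the milk stage and again at physiological maturity, with 2 RNA-seq libraries per stage and 4 in all. The labels give no treatment and no second genotype, the groups differ in their labels by stage alone, and the labels do not say whether the libraries of a stage came from separate plants. For each locus the table gives 1 FPKM value at each stage, that is, fragments scaled to locus length and to sequencing depth, taken from the column headings as the authors' combined value for the stage. There is thus no standard deviation and no test, and a difference cannot be set against the spread between libraries.

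In C4 plants such as sorghum, carbon dioxide is first hydrated by carbonic anhydrase and fixed by PEP carboxylase in mesophyll cells. The product is reduced to malate, which moves to bundle sheath cells, where NADP-malic enzyme releases carbon dioxide around Rubisco and PPDK in the mesophyll remakes the acceptor PEP. The enzymes of this cycle are best known from leaves, where their transcripts are abundant, and several also have relatives or roles outside photosynthesis.

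Of the 8 genes, 4 had a row of their own, namely those of PEP carboxylase (Sobic.010G160700), PEP carboxylase kinase (Sobic.004G338000), PPDK (Sobic.009G132900) and the Rubisco small subunit (Sobic.005G042000). The other 4 lay in 3 rows with several identifiers, and a merged value does not say how much comes from each gene. The NADP-malic enzyme gene (Sobic.003G036200) shared a row with Sobic.003G036000. The NADP-malate dehydrogenase gene (Sobic.007G166300) shared a row with Sobic.007G166200. The carbonic anhydrase genes (Sobic.003G234200 and Sobic.003G234400) shared a row with Sobic.003G234101. No gene name is paired with these additional identifiers in the table. Over the whole table, 2706 identifiers, or 7.93%, lay in the 1262 rows with several identifiers. The merged rows of NADP-malic enzyme and carbonic anhydrase each passed over an identifier that had a row of its own, as did 201 of the 1262 merged rows. The passed-over Sobic.003G036100 was listed at 0 at both stages, and Sobic.003G234300 had a milk-stage value of 0.0365 FPKM and a maturity value of 0.115 FPKM.

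In the stem, the loci of this cycle differed widely in level, and they did not differ between the stages in 1 direction. The carbonic anhydrase and Rubisco small subunit loci were lower at maturity by more than 2-fold, the PPDK locus was higher by more than 2-fold, and the loci of NADP-malate dehydrogenase and PEP carboxylase kinase were close between the stages. The C4 PEP carboxylase gene, whose enzyme carries out the first fixation step, was below 1 FPKM at both stages. The limit was a log2 difference of at least 1 in size after adding 1 to each FPKM. Of the 18749 loci that reached 1 FPKM at either stage, 22.3% were past it, 11.5% higher and 10.7% lower at maturity.

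**Figure D1:**
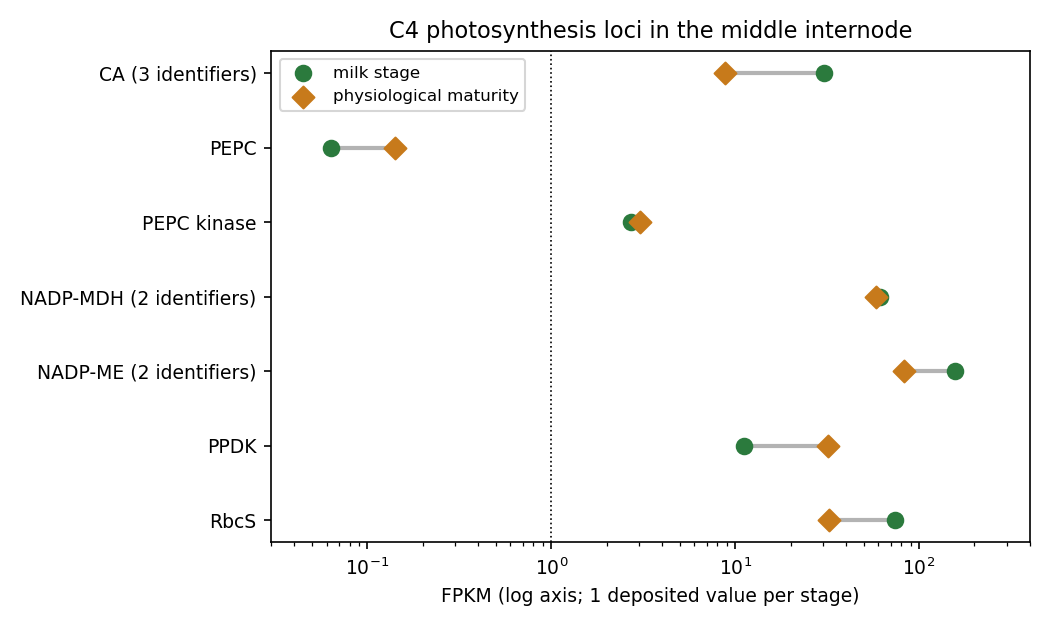
FPKM of each C4 locus (logarithmic horizontal axis) at the milk stage (green circles) and physiological maturity (orange diamonds), 1 deposited value per stage with no error, and a dotted line at 1 FPKM. The PEP carboxylase locus alone lies left of 1 FPKM, and the grey lines run left from green to orange for carbonic anhydrase, NADP-malic enzyme and the Rubisco small subunit and right for PPDK; CA is carbonic anhydrase, PEPC is PEP carboxylase, MDH is malate dehydrogenase, ME is malic enzyme and RbcS is the Rubisco small subunit.

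Carbonic anhydrase, which supplies bicarbonate for the first fixation, gave the largest decrease in log2 difference among the 7 loci. Its shared row had a milk-stage value of 30.3 FPKM and a maturity value of 8.77 FPKM. With 1 added to each value, maturity was 3.21-fold lower. The log2 difference, taken throughout as maturity minus milk stage of log2(FPKM + 1), was -1.68, and 3.47% of all loci compared had a lower one. Whether both carbonic anhydrase genes were lower, or only 1 of the 3 identifiers in the row, cannot be read from a merged value. The next identifier on the chromosome, Sobic.003G234500, had a row of its own and had a milk-stage value of 0.355 FPKM and a maturity value of 2.29 FPKM, in the opposite direction at a low level.

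The C4 PEP carboxylase gene had a milk-stage value of 0.0632 FPKM and a maturity value of 0.142 FPKM. At the milk stage 32.2% of all loci had a lower value and at maturity 36.8%, shares that include the 8065 and 8413 loci listed at 0. The plain ratio of maturity to milk stage was 2.24, while the log2 difference after adding 1 was 0.10. Plain ratios of this size were common at such levels. Of the 2088 loci above 0 at both stages and averaging 0.05 to 0.2 FPKM over them, 61.4% differed by 2-fold or more, 628 upward and 654 downward. The number of fragments behind the value is unknown, so its counting error is too. These values are those of the C4 gene alone, and other PEP carboxylase genes were not analysed here.

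PEP carboxylase kinase, which phosphorylates PEP carboxylase and makes it less sensitive to inhibition by malate, was measured above the C4 PEP carboxylase gene. The kinase gene had a milk-stage value of 2.71 FPKM and a maturity value of 3.05 FPKM, and the log2 difference was 0.13. Quantile normalization brought it to -0.0018. The value of the C4 carboxylase gene, whose counting error is unknown, was 2.33% of the kinase value at the milk stage and 4.65% at maturity. Other PEP carboxylase genes are not part of this comparison.

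NADP-malate dehydrogenase, the chloroplast enzyme that reduces oxaloacetate to malate, had the closest values of the merged rows. Its row had a milk-stage value of 61.5 FPKM and a maturity value of 58.6 FPKM, and the log2 difference was -0.07. The sign of so small a difference turned with 2 of the scalings between the stages, to 0.19 with equal sums and 0.05 with quantile normalization.

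NADP-malic enzyme, which decarboxylates malate in the bundle sheath, was the most abundant of the 7 loci at both stages. Its row had a milk-stage value of 156 FPKM and a maturity value of 82.9 FPKM, 1.87-fold lower after adding 1 and short of the 2-fold limit. The log2 difference was -0.91, and 12.4% of all loci compared had a lower one. At the milk stage 878 loci of the table were above it in FPKM and at maturity 1561. Among the 1149 loci that averaged 100 to 500 FPKM, the range that holds this row, 17.7% were at least 2-fold lower at maturity and 7.05% higher. Its merged value may belong to either identifier in the row or to both.

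PPDK, which regenerates PEP from pyruvate, was the locus with the largest increase. Its gene had a milk-stage value of 11.1 FPKM and a maturity value of 31.9 FPKM, 2.71-fold higher after adding 1. The log2 difference was 1.44, and 94.7% of all loci compared had a lower one. Among the 5258 loci that averaged 20 to 100 FPKM, the range that holds PPDK, 9.0% were at least 2-fold higher at maturity. PPDK lay near the lower edge of that range. Among the 6262 loci that averaged 5 to 20 FPKM, the share was 13.0%.

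The Rubisco small subunit, the nuclear-encoded part of the enzyme that fixes carbon dioxide in the Calvin cycle, was lower at maturity. Its gene had a milk-stage value of 73.8 FPKM and a maturity value of 32.2 FPKM, 2.25-fold lower after adding 1. The log2 difference was -1.17, and 8.04% of all loci compared had a lower one. Among the 5258 loci that averaged 20 to 100 FPKM, a range that also holds this gene, 11.0% were at least 2-fold lower. With both stages set to equal sums the difference was -0.91 and no longer reached 2-fold. In bulk tissue, a change in the share of cells that express a gene and a change in its RNA per cell cannot be told apart. This holds for each decrease given here and for the increase of PPDK.

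Of the 7 C4 loci, 6 reached 1 FPKM at either stage, and 3 of the 6 were past the 2-fold limit, beside 22.3% of all loci compared. Of these, 1 was higher (PPDK) and 2 were lower (carbonic anhydrase and the Rubisco small subunit). The median log2 difference of the 6 was -0.49, beside 0.04 over all loci compared, whose 25th and 75th percentiles were -0.48 and 0.57. The log2 differences of the 6 loci ran from -1.68 to 1.44, and only those of NADP-malate dehydrogenase and PEP carboxylase kinase lay between those percentiles. With 6 loci these numbers describe the list and do not set it apart. Merged rows as a class were past the limit about as often as rows with 1 identifier, in 20.4% of 1176 and 22.0% of 16568. These shares do not say how much of a merged value comes from each gene.

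**Figure D2:**
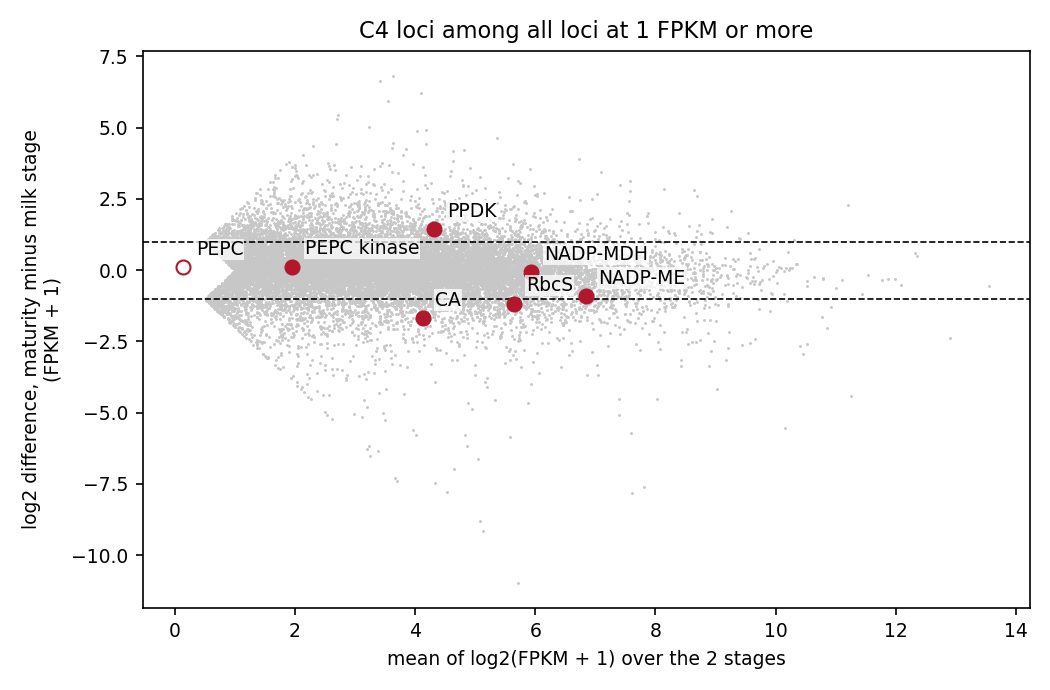
Log2 difference of each locus, maturity minus milk stage after adding 1 to each FPKM, against its mean log2(FPKM + 1), for the 18749 loci at 1 FPKM or more at either stage (grey) and the C4 loci (red, with PEP carboxylase open because it is under 1 FPKM at both stages). Dashed lines mark the 2-fold limit; PPDK lies above the upper line, carbonic anhydrase and the Rubisco small subunit lie below the lower one, and NADP-malic enzyme lies just inside it.

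The order of the levels changed between the stages. At the milk stage it ran from NADP-malic enzyme through the Rubisco small subunit, NADP-malate dehydrogenase, carbonic anhydrase, PPDK and PEP carboxylase kinase to PEP carboxylase. At maturity NADP-malate dehydrogenase stood above the Rubisco small subunit, and PPDK above carbonic anhydrase. The Rubisco small subunit and PPDK were then next to each other, at 32.2 and 31.9 FPKM, and with no replicate values their order at maturity cannot be resolved. The 7 loci added up to 336 FPKM in milk-stage and 218 FPKM in mature internodes, 0.0419% and 0.0326% of the sums of the table. NADP-malic enzyme made up 46.5% and then 38.1% of the sum of the 7, and PPDK 3.31% and then 14.7%. The values of NADP-malic enzyme, NADP-malate dehydrogenase and carbonic anhydrase are those of merged rows. Part of the order, of the sum and of the ratios below may therefore belong to identifiers outside the 8 genes.

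Ratios between loci within a stage do not depend on a constant scaling between the stages. The PPDK value was 15.1% of the Rubisco small subunit value at the milk stage and 99.1% at maturity, a 6.58-fold change of the ratio. Against carbonic anhydrase, PPDK went from 36.7% to 364%, a 9.92-fold change and the largest among the 15 pairs of the 6 loci at 1 FPKM or more. Against NADP-malic enzyme it went from 7.12% to 38.5%. The Rubisco small subunit and NADP-malic enzyme had a ratio of 47.2% at the milk stage and 38.8% at maturity, a 1.22-fold change. That was the smallest change after the 1.18-fold one between PEP carboxylase kinase and NADP-malate dehydrogenase. The ratio changed by at least 2-fold in 10 of the 15 pairs, among them every pair with PPDK. The pairs are drawn from the same 6 loci and are not independent. The share among pairs of all loci was not computed, so the count does not set the C4 loci apart. PEP carboxylase was 0.568% of PPDK at the milk stage and 0.445% in the mature internode, and 0.0405% and 0.171% of NADP-malic enzyme.

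**Figure D3:**
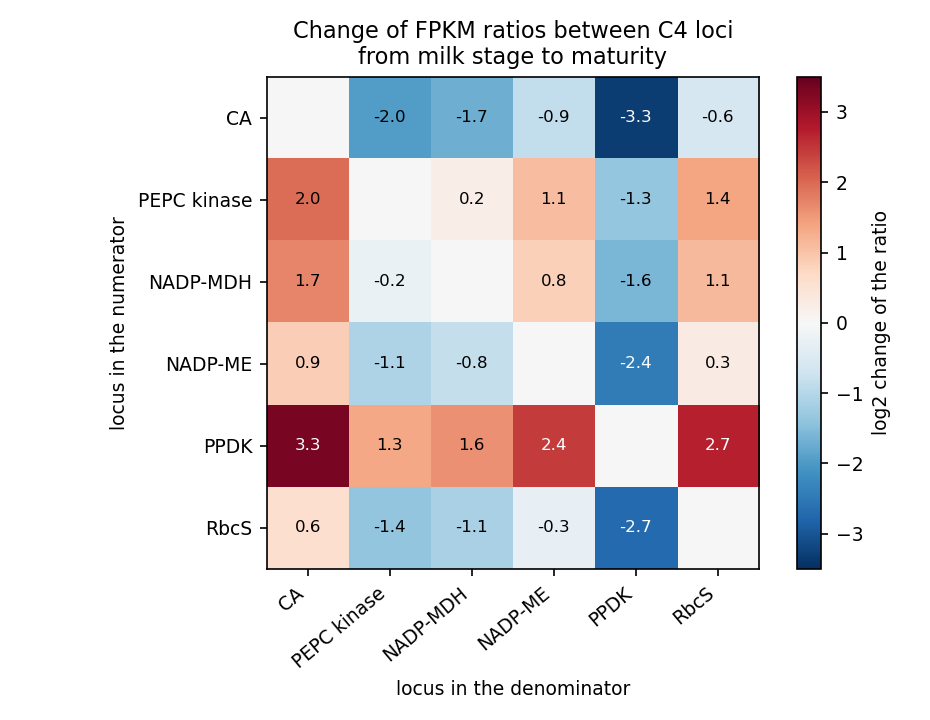
Change from milk stage to maturity of the FPKM ratio between each pair of the 6 C4 loci at 1 FPKM or more, as log2 of the maturity ratio over the milk-stage ratio, with no pseudocount (row in the numerator, column in the denominator; red is an increase, blue a decrease). The PPDK row is red throughout, and the Rubisco small subunit and NADP-malic enzyme against each other are among the palest cells.

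The loci whose identifiers stand directly before and after each C4 row, 14 in all, did not exceed 31.2 FPKM in milk-stage or 35.0 FPKM in mature internodes. Of the 8 that reached 1 FPKM at either stage, 1 was at least 2-fold higher and 1 at least 2-fold lower at maturity. The higher one was Sobic.003G234500 beside carbonic anhydrase, given above, and the lower one was Sobic.003G035900 before the NADP-malic enzyme row, at 28.5 and 6.72 FPKM. The neighbours of the Rubisco small subunit gene were both under 1 FPKM at each stage, and the neighbours of PPDK were at 31.2 and 27.7 FPKM before it and listed at 0 after it.

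With 2 values per locus, likeness of pattern could be measured only as closeness of the log2(FPKM + 1) values at both stages. The single-identifier locus nearest to PPDK was Sobic.003G104350, at 11.3 and 32.9 FPKM and a distance of 0.0479 on the log2 scale. The locus nearest to the Rubisco small subunit was Sobic.001G341100, at 73.8 and 32.2 FPKM and a distance of 0.00262. Within a distance of 0.1, PPDK had 10 such loci and the Rubisco small subunit 8, while PEP carboxylase, among the many low loci, had 807. Over the 7 C4 loci the distance to the nearest such locus ran from 0.00118 for PEP carboxylase to 0.0696 for carbonic anhydrase. The table gives no gene name for any of these loci.

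**Figure D4:**
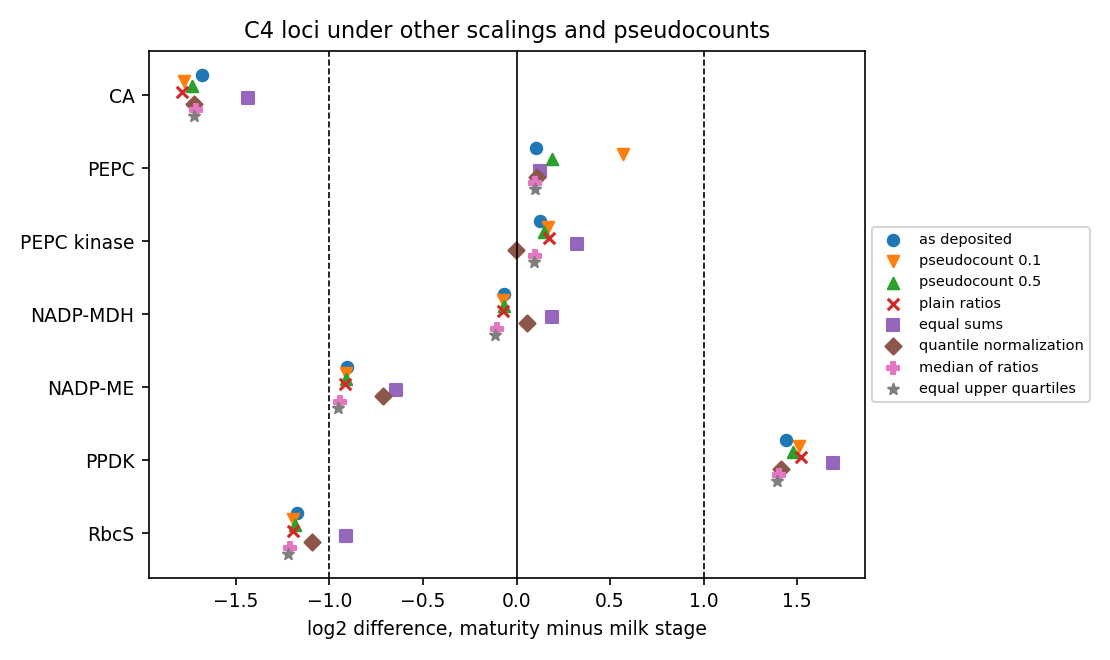
Log2 difference of each C4 locus, maturity minus milk stage, as deposited and under 7 other settings (2 other pseudocounts, plain ratios for loci that reached 1 FPKM at each stage, and 4 scalings between the stages), with dashed lines at the 2-fold limit. PPDK stays right of 1 (1.39 to 1.69) and carbonic anhydrase left of -1 (-1.79 to -1.43) under each setting shown, the Rubisco small subunit crosses to -0.91 with equal sums, and NADP-malate dehydrogenase and PEP carboxylase kinase lie on both sides of 0.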

How the data were processed

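Libraries were made from Trizol-extracted total RNA with a strand-preserving kit, per the labels' protocols. The submitters' processing notes name HISAT2 2.0.5, Bowtie2 2.2.9, Cuffdiff (without a version) and cutadapt 1.8.1, and give none of them a role. The sources used here do not give the genome build, strand setting or scaling between libraries. The authors deposited FPKM values, 1 per locus and stage. Depth is unknown.

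The planned limma test needs a value for each library and was replaced by differences of log2(FPKM + 1), a minimum of 1 FPKM at either stage and a 2-fold limit. None of 34129 identifiers matched the reference gene table (0 matched), so the 19 planned word lists, including those of other photosynthesis genes and of other tissues, were not formed. The tissue label was therefore not checked against markers, and no sequence or coordinate is given. All 8 genes were to be named, with their neighbouring and nearest loci. Only some of those other loci are given by identifier, among them the loci nearest to PPDK and to the Rubisco small subunit. Members and lists were chosen with earlier results of these data known. Calculations used matplotlib 3.10.9, numpy 2.4.6, pandas 2.3.3, Python 3.11.15 and scipy 1.17.1. Only the log2 differences with their minimum and limit, and the 4 scalings, were tested on simulated data. Ranks, ratios between loci, neighbours and nearest loci were not. Alternatives were 2 pseudocounts, 4 scalings and other minimums, and, chosen after seeing the data, plain ratios, other limits and rows with 1 identifier.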

Additional observations from a re-analysis of the deposited data

How the results depend on the processing

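A pseudocount or a plain ratio cannot turn the sign of a difference, so only the 4 scalings could do so. Of 48 values of the 7 C4 loci under 2 other pseudocounts, 4 scalings and plain ratios, 45 kept the sign of the deposited difference. The exceptions were NADP-malate dehydrogenase at 0.19 with equal sums and 0.0539 with quantile normalization, and PEP carboxylase kinase at -0.0018 with quantile normalization. With equal sums, which moved the median of the loci compared by 0.23, the Rubisco small subunit was at -0.91, so that 1 C4 locus in place of 2 was at least 2-fold lower. The other 3 scalings moved that median by -0.02 to -0.04. Equal sums also raised the share of higher loci among those past the limit to 69.7%; the counts of all loci stayed within 1.5 times those reported under each pseudocount, scaling and minimum. Among rows with 1 identifier, 1 C4 locus was lower, since the carbonic anhydrase row is merged. At a 4-fold limit 0 C4 loci were higher and 0 lower, beside 416 and 427 of the 18749 loci compared, or 4.50% either way. At a 1.5-fold limit 1 C4 locus was higher and 3 were lower, NADP-malic enzyme among them. Of the 18749 loci, 4545 were higher and 3934 lower at that limit, or 45.2% either way. Loci with 1 identifier, plain ratios and these limits were chosen after the values were seen. No paired analysis was possible because each stage has a single combined value, and for that reason no library could be left out. Depth is unknown, so the counting error of low values such as those of PEP carboxylase is too.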
